A study of Caenorhabditis elegans and Caenorhabditis briggsae and Caenorhabditis remanei with 48 samples.

Results

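The autophagy genes unc-51, atg-18, atg-3 and lgg-1 were followed through feeding-induced exit from L1 diapause, the arrest in which newly hatched nematode larvae wait for food. The members are 4 C. elegans coding sequences (CE24516, CE10268, CE25486 and CE01849) and the coding sequences that the study's curated gene list gives for the same genes in 3 related species, C. briggsae, C. remanei and C. brenneri. They make up 15 coding sequences, since lgg-1 is not given for C. brenneri. The mRNA tables hold 23445, 20908, 30807 and 28607 coding sequences in C. elegans, C. briggsae, C. remanei and C. brenneri, and the RPF tables hold 21092, 18793, 25895 and 26763. Each row was found by its change in both tables, and every one of the 15 was matched by exactly 1 coding sequence.

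All larvae belonged to wild-type strains, N2 for C. elegans, AF16 for C. briggsae, PB4641 for C. remanei and PB2801 for C. brenneri, and hatched in sterile liquid medium. The diapause group was frozen after 24 h of starvation at 20 °C, and the developing group was starved for the same 24 h and then fed for 3 h with the bacterium E. coli HB101, at a density of 15 mg/mL. Each of these states was measured in 3 libraries per species by mRNA-seq and in 3 by ribosome profiling, in which ribosome protected fragments (RPF) are sequenced, giving 48 libraries. Whole larvae were used, so fewer cells that express a gene and less RNA per cell cannot be told apart. The labelled stage was not checked against marker genes looked up by symbol, because 0 of the 23445 C. elegans identifiers were found in the gene name lists used. A check of the states with 70 C. elegans genes that the study lists by identifier is given with the processing.

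In autophagy a cell encloses part of its cytoplasm in a membrane and delivers it to the lysosome for breakdown. The process supplies building blocks when food is absent and is required for starved nematode larvae to survive. UNC-51 is the C. elegans Atg1/ULK kinase that starts the process. ATG-18 is a WIPI protein that binds phosphoinositide lipid on the growing membrane. ATG-3 is the E2-like enzyme that joins LGG-1 to phosphatidylethanolamine, and LGG-1, of the Atg8/GABARAP family, is the ubiquitin-like protein that then coats the autophagosome.

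The 4 genes were lower in developing than in diapause larvae of every species where they were measured. The log2 change in mRNA ranged from -0.47, for atg-3 in C. brenneri, to -2.51, for atg-18 in C. elegans. The change in RPF ranged from -0.73, for unc-51 in C. brenneri, to -3.48, for lgg-1 in C. briggsae. For all 15 coding sequences the RPF change was larger than the mRNA change, so the translation efficiency (TE), the ratio of RPF to mRNA, had a negative log2 change in 15 of 15, of which 8 passed the test. The curated list holds genes that the study had called in these RPF data in at least 2 species and was aimed at genes high in diapause. The direction of the RPF change, and of the TE change that contains it, is therefore not independent evidence. The mRNA change is part of the RPF change, so its direction was also favoured by that choice. The tables name the states only A and B. Column A was first read as diapause from the direction that the study's text gives for these same genes, so every shared sign here rests on that reading. A check made after the values were seen, without the members, read all 8 tables the same way from library totals, least clearly in C. brenneri.

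Levels are given in normalised reads, the reads of a library divided by its size factor, and were compared between the states of a table only, since coding lengths are not given and each table was normalised separately. A TE change compares the change between states in one table with that in another. As the study points out, all of these measures are relative, and total translation is substantially lower in diapause. No absolute amount is given, so a lower value is not read as fewer transcripts or ribosomes per larva. A change is developing minus diapause on the log2 scale of normalised reads plus 1, with the standard error (SE) from limma, n = 3 libraries per state, and was called at a Benjamini-Hochberg adjusted p under 0.1 over the whole table. The libraries behind the members held between 74 and 15983 reads for a coding sequence. The coefficient of variation within a state had a median of 9.18% over 60 groups and reached 23.6%. The libraries of a species and assay held from 1770493 to 20064694 reads in the coding sequences whose reads were recovered. Those not recovered were among the most abundant, with means of 10021 normalised reads or more, so the full depth was higher. Within a state, libraries correlated across well-expressed coding sequences with Pearson's r between 0.915 and 0.987, and no pair was identical. In C. remanei, 2 coding sequences took 80.1% of all normalised RPF reads in diapause and 65.6% in developing larvae, and in C. briggsae 2 took 47.3% and 31.2%. Relative to the deposited scaling, the median mRNA change of well-expressed coding sequences (a mean of at least 50 normalised reads in both assays) was 0.17 in C. remanei, the median RPF change was 0.13 for C. briggsae and 0.10 for C. remanei, and the other medians were under 0.1.

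**Figure D1:**
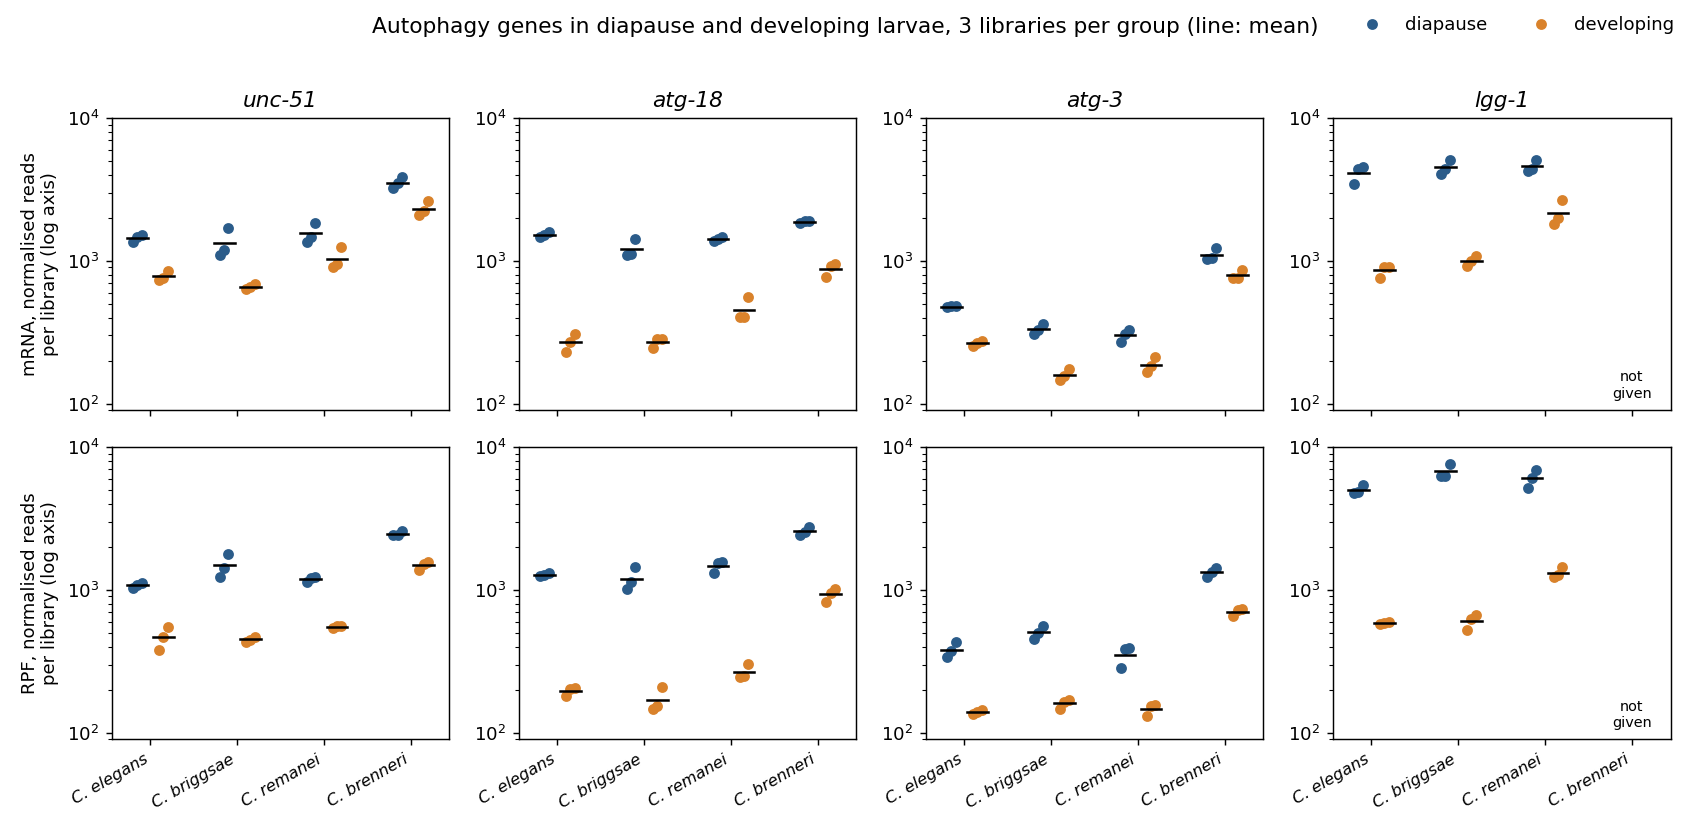
Normalised reads per library (log axis) of the 4 genes in each species, for mRNA (upper row) and RPF (lower row). Each point is 1 of the 3 libraries of a state and the line is their mean. In all 15 coding sequences and both assays the 3 diapause libraries lie above the 3 developing ones.

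The kinase gene unc-51 fell in all 4 species, with changes from -0.59 to -0.996 in mRNA and from -0.73 to -1.71 in RPF. In C. elegans its mRNA libraries had 1346, 1478 and 1514 normalised reads in diapause and 739.8, 765 and 843 in developing larvae. The corresponding RPF libraries had 1039.6, 1082 and 1112 normalised reads in diapause and 381, 467 and 552 after feeding. The states were well apart, and the developing RPF libraries were the more scattered (coefficient of variation 18.4%). The mRNA change was -0.89 ± 0.10 (SE, n = 3, adjusted p = 6.4e-05) and the RPF change -1.22 ± 0.13 (adjusted p = 1.1e-05).

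For unc-51 in C. briggsae, mRNA libraries held 1107, 1201 and 1692 normalised reads in diapause against 630.4, 654 and 686 in developing larvae. RPF libraries held 1242, 1428 and 1790.4 against 435, 448 and 467. One diapause library of each assay was well above the others, and no library crossed into the range of the other state. The change was -0.996 ± 0.15 in mRNA (adjusted p = 0.00028) and -1.71 ± 0.16 in RPF (adjusted p = 2e-05).

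The C. remanei libraries came closest to each other for this gene, with 1355, 1475 and 1845 normalised mRNA reads in diapause and 905, 950.1 and 1251 in developing larvae. The highest developing library lay just under the lowest diapause library. RPF was more even, at 1134, 1214 and 1240.5 normalised reads against 540.1, 560.4 and 560.5. The mRNA change of -0.59 ± 0.16 (adjusted p = 0.025) lost its call when any of 4 single libraries was left out (adjusted p from 0.10 to 0.18 without diapause library a or c or developing library b or c, letters ordering the libraries of a state by their reads). Over all alternatives it kept its sign. The RPF change was -1.11 ± 0.10 (adjusted p = 2.6e-07).

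In C. brenneri, unc-51 had 3233, 3541 and 3849 normalised mRNA reads in diapause and 2098, 2241 and 2610.3 in developing larvae. RPF had 2428, 2432 and 2587 normalised reads against 1384, 1528 and 1581. The RPF change was the smallest of unc-51 in the 4 species, at -0.73 ± 0.10 (adjusted p = 0.00017), beside an mRNA change of -0.61 ± 0.13 (adjusted p = 0.0069).

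The lipid-binding atg-18 fell more steeply than unc-51 in each table, with changes from -1.10 to -2.51 in mRNA and from -1.47 to -2.82 in RPF, although the difference between genes was not tested. In C. elegans its mRNA went from 1473, 1514 and 1589 normalised reads per library in diapause to 230, 269 and 307 in developing larvae. Its RPF went from 1261, 1281 and 1306 to 180.4, 202 and 206. The diapause RPF libraries differed little, with a coefficient of variation of 1.77%. In mRNA the change was -2.51 ± 0.12 (adjusted p = 1.8e-07), and 1.36% of 11925 well-expressed coding sequences had a lower value. The RPF change was -2.71 ± 0.10 (adjusted p = 2.2e-09).

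One further C. elegans coding sequence, CE30784, ran almost in parallel with atg-18 across the 12 libraries, at 0.962 times its normalised reads with a standard deviation of 0.03 on the log2 scale. The next nearest row had a standard deviation of 0.14. Reads that fall in coding sequence common to both rows would be counted in each, and what CE30784 encodes is not given in the tables used here.

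In C. briggsae, atg-18 mRNA libraries had 1107, 1119 and 1413 normalised reads in diapause and 246, 282 and 285 in developing larvae. RPF libraries had 1008, 1139 and 1453 against 145, 153 and 209.6. In both assays the developing libraries were far below every diapause library. The changes were -2.15 ± 0.13 in mRNA (adjusted p = 3.1e-07) and -2.82 ± 0.18 in RPF (adjusted p = 2.6e-06).

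The C. remanei atg-18 libraries held 1369, 1429 and 1464 normalised mRNA reads in diapause against 406, 408 and 554 after feeding. For RPF they held 1309.99, 1539 and 1559.9 against 244, 249 and 305. One developing mRNA library was higher than its 2 companions and still far below diapause. mRNA changed by -1.65 ± 0.14 (adjusted p = 3.3e-05), and the RPF change was -2.47 ± 0.12 (adjusted p = 1.8e-10).

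In C. brenneri the same gene had 1834, 1890.02 and 1906 normalised mRNA reads in diapause and 768, 914 and 952 in developing larvae. Its RPF libraries had 2428, 2529.6 and 2758 against 826, 951 and 1020.3. The mRNA change, -1.10 ± 0.12 (adjusted p = 9.4e-05), and the RPF change, -1.47 ± 0.11 (adjusted p = 3.3e-06), were the smallest of atg-18 in the 4 species.

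The conjugating enzyme gene atg-3 changed by about as much as unc-51, with changes from -0.47 to -1.05 in mRNA and from -0.92 to -1.64 in RPF. In C. elegans, mRNA libraries had 474, 481 and 482 normalised reads in diapause and 253, 264 and 274 in developing larvae. RPF libraries had 336, 376 and 435 against 136, 140.04 and 145. The diapause mRNA libraries were almost equal, with a coefficient of variation of 0.921%, and the diapause RPF libraries spread more, at 12.9%. The change in mRNA was -0.86 ± 0.10 (adjusted p = 5.7e-05) and the RPF change -1.43 ± 0.13 (adjusted p = 2.5e-06).

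In C. briggsae, atg-3 had 306, 327 and 359 normalised mRNA reads in diapause and 146, 156 and 175 after feeding. RPF libraries had 455, 499.7 and 558 against 147, 164 and 170.4. Both assays kept the states clearly apart, and the decrease was larger in RPF. Changes were -1.05 ± 0.13 in mRNA (adjusted p = 4.7e-05) and -1.64 ± 0.13 in RPF (adjusted p = 8.1e-06).

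The C. remanei libraries gave 272, 307 and 329.9 normalised mRNA reads for atg-3 in diapause and 167, 183 and 211 in developing larvae. They gave 282, 383 and 393 normalised RPF reads against 130.3, 153 and 156. A single diapause RPF library stood below the other two. The mRNA change was -0.70 ± 0.14 (adjusted p = 0.0063), and the RPF change was -1.25 ± 0.15 (adjusted p = 4.4e-06).

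In C. brenneri, atg-3 mRNA moved least of all 15, from 1025, 1043 and 1233 normalised reads in diapause to 755, 756 and 859.8 in developing larvae. RPF moved from 1237, 1333 and 1422 to 656, 719 and 730.1. The mRNA change of -0.47 ± 0.12 (adjusted p = 0.016) was under a 1.5-fold difference, the only one of the 15 below that size. The RPF change was -0.92 ± 0.10 (adjusted p = 3.6e-05).

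The ubiquitin-like lgg-1 had the largest RPF change of the 4 genes in C. elegans and C. briggsae. Its C. elegans mRNA libraries held 3439, 4433 and 4559 normalised reads in diapause and 765, 903 and 904 in developing larvae. Its RPF libraries held 4791, 4866 and 5458 against 578, 587 and 598. After feeding, footprints were within a coefficient of variation of 1.64% of one another. In mRNA the change was -2.27 ± 0.14 (adjusted p = 7.6e-07) and the RPF change -3.10 ± 0.10 (adjusted p = 1.2e-09), a relative level 8.55-fold lower. Only 1.58% of the well-expressed coding sequences had a lower RPF change.

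In C. briggsae, lgg-1 had 4079.7, 4399.6 and 5115 normalised mRNA reads in diapause and 924, 1001 and 1079.5 in developing larvae. RPF fell from 6306, 6325 and 7668 normalised reads to 523, 627 and 667. mRNA changed by -2.17 ± 0.13 (adjusted p = 3.1e-07). The RPF change, -3.48 ± 0.17 (adjusted p = 5.6e-07), was the largest of all 15 and equals an 11.2-fold lower relative level.

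The C. remanei lgg-1 libraries held 4262, 4436 and 5064 normalised mRNA reads in diapause against 1824, 1989 and 2667 in developing larvae. RPF libraries held 5149.95, 6089 and 6981 against 1227, 1266 and 1451. The change in mRNA was -1.10 ± 0.15 (adjusted p = 0.00063) and the RPF change -2.20 ± 0.13 (adjusted p = 1e-09).

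Set side by side, the changes were larger in C. elegans and C. briggsae than in C. remanei and C. brenneri. The median mRNA change over the members was -1.58 (C. elegans), -1.60 (C. briggsae), -0.90 (C. remanei) and -0.61 (C. brenneri). The median RPF change was -2.07, -2.26, -1.73 and -0.92 in the same order. Changes of well-expressed coding sequences were also narrower in the latter pair, with a standard deviation of RPF changes of 1.34 and 1.48 in the former and of 1.19 and 0.94 in the latter. The C. brenneri median rests on 3 genes, without lgg-1. Differences between species were not tested.

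In mRNA all 15 members were called lower. The share of all coding sequences called lower was 23.9% for C. elegans and 22.8% for C. briggsae, against 11.9% for C. remanei and 12% for C. brenneri. A decrease of at least 2-fold was seen for 8 of the 15, namely atg-18 in all 4 species, lgg-1 in the 3 species that have it and atg-3 in C. briggsae. Among well-expressed coding sequences, 9.43% (C. elegans), 12.2% (C. briggsae), 6.39% (C. remanei) and 4.32% (C. brenneri) fell that far. Diapause libraries all exceeded developing libraries for 15 of 15 members, beside 25.7%, 25.3%, 18.3% and 16.5% of all coding sequences in the same species order. An RPF change contains the mRNA change, so these mRNA counts are not independent of the choice of the list by RPF calls.

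In RPF all 15 were likewise called lower, beside 26%, 23.2%, 21.3% and 21.2% of all coding sequences in the same species order. The decrease was at least 2-fold for 13 of 15, all but unc-51 and atg-3 in C. brenneri, beside 15.2%, 16.7%, 13.2% and 8.42% of well-expressed coding sequences. No member had overlapping RPF libraries, while 27%, 25.5%, 23% and 23.1% of all coding sequences had every diapause library above every developing one. Since the list was drawn from RPF calls, nothing is read from these RPF counts.

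**Figure D2:**
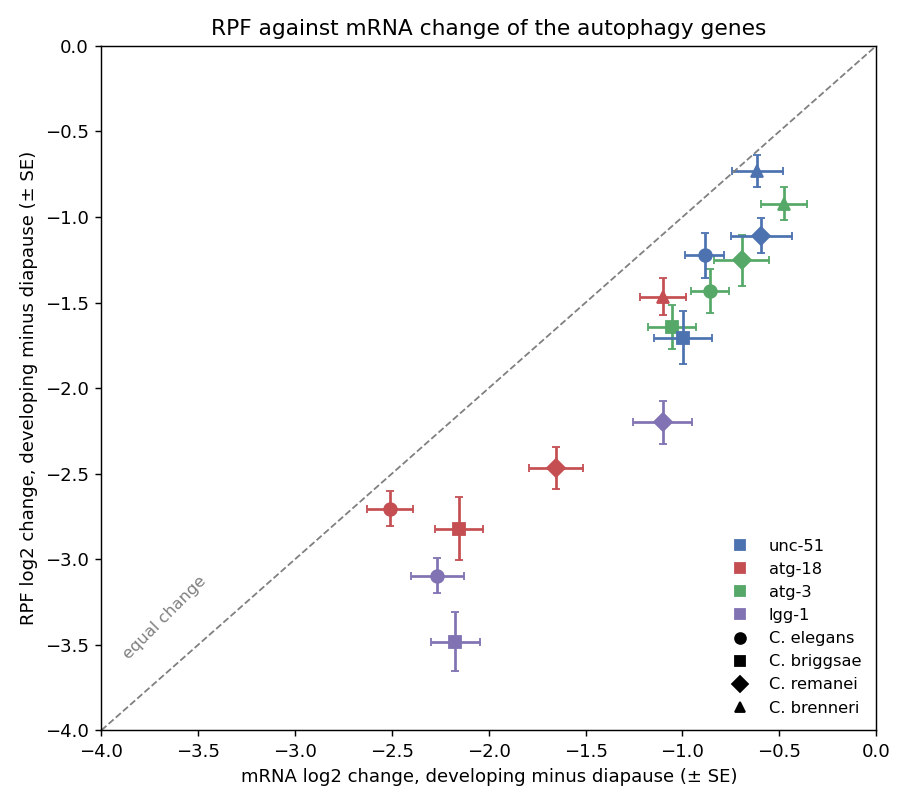
RPF log2 change against mRNA log2 change, developing minus diapause, of the 15 coding sequences, with SE bars (n = 3 libraries per state). Colours give the gene and symbols the species. All points lie under the dashed line of equal change, lgg-1 in C. briggsae farthest from it and unc-51 in C. brenneri nearest to it.

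The mRNA and RPF data came from common samples by the study's account. TE was tested as the interaction of state and assay over the 12 libraries of a species, with these treated as independent. It was called lower for 8 of the 15 members: 2 of 4 in C. elegans and in C. remanei, 4 of 4 in C. briggsae and 0 of 3 in C. brenneri, where 2 of the 3 had an unadjusted p under 0.05 with limma and 3 of 3 were called after scaling to equal column sums, a scaling that called 2887 of 26240 C. brenneri coding sequences lower in place of 147. The share of all coding sequences called lower in TE was 6.32% (C. elegans), 6.3% (C. briggsae), 4.83% (C. remanei) and 0.56% (C. brenneri). The TE change made up from 7.22% (atg-18 in C. elegans) to 49.9% (lgg-1 in C. remanei) of the RPF change, with a median of 35.8%.

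The lgg-1 TE was called lower in all 3 species. It changed by -0.83 ± 0.17 in C. elegans (adjusted p = 0.0049), by -1.31 ± 0.20 in C. briggsae (adjusted p = 0.00055) and by -1.10 ± 0.20 in C. remanei (adjusted p = 0.0031). In C. briggsae 1.33% and in C. remanei 1.96% of well-expressed coding sequences had a lower TE change, against 5.67% in C. elegans. These calls held in every alternative tried, with an adjusted p of at most 0.06, in C. remanei under scaling to equal column sums.

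For atg-3, TE changed by -0.58 ± 0.16 in C. elegans (adjusted p = 0.031) and by -0.59 ± 0.18 in C. briggsae (adjusted p = 0.044). It was not called in C. remanei, at -0.56 ± 0.22 (adjusted p = 0.15, 95% interval -1.02 to -0.10), or in C. brenneri, at -0.45 ± 0.15 (adjusted p = 0.13, interval -0.76 to -0.13). The 4 estimates thus ran from -0.45 to -0.59. In C. briggsae the call was lost without mRNA diapause library c, mRNA developing library a or RPF developing library b (adjusted p from 0.10 to 0.11), and over all single omissions it ranged from 0.036 to 0.11.

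For atg-18, the TE change was -0.81 ± 0.19 in C. remanei (adjusted p = 0.016) and -0.67 ± 0.24 in C. briggsae (adjusted p = 0.091). It was not called in C. elegans, at -0.20 ± 0.15 (adjusted p = 0.50, interval -0.52 to 0.13), where mRNA and RPF changed by nearly the same amount, or in C. brenneri, at -0.37 ± 0.15 (adjusted p = 0.28, interval -0.69 to -0.04). The C. briggsae call lay close to the threshold, and 9 of its 12 single-library omissions ended it (adjusted p from 0.029 to 0.19 over the 12). Scaling to equal column sums ended the C. remanei call (-0.33, adjusted p = 0.33), while over its other alternatives the adjusted p was at most 0.045.

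For unc-51, TE was called in C. briggsae alone, at -0.71 ± 0.23 (adjusted p = 0.062), and 7 of 12 single-library omissions ended that call (adjusted p from 0.0084 to 0.15 over the 12). The change was -0.34 ± 0.17 in C. elegans (adjusted p = 0.26, interval -0.70 to 0.03), -0.52 ± 0.19 in C. remanei (adjusted p = 0.12, interval -0.91 to -0.12) and -0.12 ± 0.15 in C. brenneri (adjusted p = 0.82, interval -0.44 to 0.21). Scaling to equal column sums ended the C. briggsae TE calls of unc-51 (-0.53, adjusted p = 0.18), atg-18 (-0.49, adjusted p = 0.24) and atg-3 (-0.41, adjusted p = 0.18), while the remaining scalings left them called. Whether the TE change of a gene differs between species was not tested.

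Within each state, the RPF to mRNA ratio of a gene was set against the median ratio of the well-expressed coding sequences of that species and state, a description without a test. Values of different species stand side by side and are not compared. The list was drawn from RPF calls and aimed at genes high in diapause. That choice favours a high ratio in diapause and a lower one after feeding, so these ratios are not independent evidence. In diapause 14 of 15 members lay above that median, and in developing larvae 10 of 15, a count that was 6 with a minimum of 200 normalised reads for well-expressed coding sequences and 13 with none. For lgg-1 the diapause ratio was 1.96 (C. elegans), 2.87 (C. briggsae) and 2.33 (C. remanei) times the median, higher than in 91.5%, 98.0% and 96.0% of coding sequences. After feeding it was 1.10, 1.15 and 1.11 times the median, at percentiles 58.0, 62.0 and 58.9. With the minimum of 200 it lay under the median after feeding, at 0.964, 0.984 and 0.961 times.

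The atg-18 ratio stood at 1.35, 1.90, 1.82 and 1.64 times the median in diapause in C. elegans, C. briggsae, C. remanei and C. brenneri, and at 1.17, 1.18, 1.06 and 1.18 times in developing larvae. The atg-3 ratio was 2.93 times the median in C. briggsae and 2.05 times in C. remanei in diapause, and 1.92 and 1.42 times after feeding. In C. elegans it was 1.29 and then 0.852 times the median, and in C. brenneri 1.45 and then 0.990 times. The unc-51 ratio was 2.15 times the median in C. briggsae diapause and 0.838 times in C. brenneri diapause, the single diapause value under the median. After feeding it was 0.957, 1.30, 0.972 and 0.721 times the median in the 4 species.

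**Figure D3:**
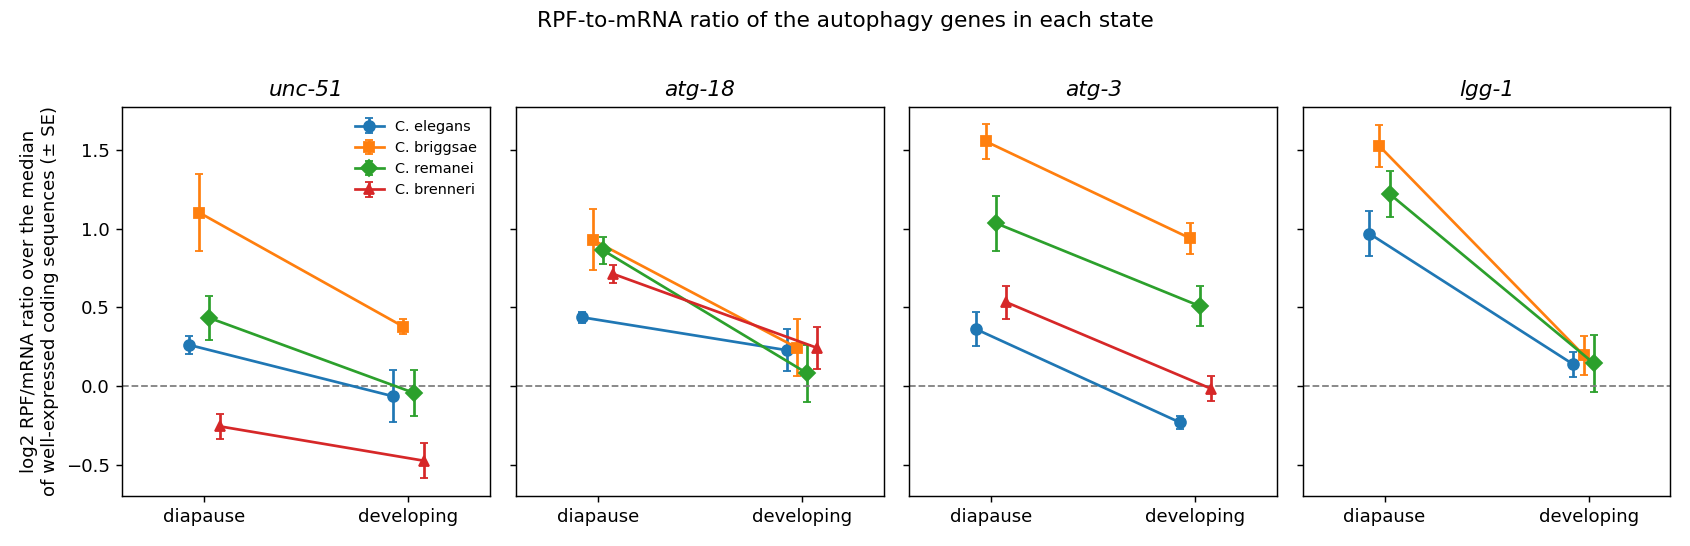
Log2 ratio of RPF to mRNA over the median ratio of well-expressed coding sequences in diapause and developing larvae, with SE bars from the 3 libraries of each assay. A dashed line marks the median. Every line slopes down, and the 3 lgg-1 lines, from 0.97, 1.52 and 1.22 in diapause, meet between 0.14 and 0.20 in developing larvae.

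Further rows of the curated list carry the names of genes that act upstream of autophagy in the insulin and TOR pathways. DAF-2 is the insulin receptor of C. elegans, AKT-1 is a kinase of insulin signalling, DAF-16 is the FOXO transcription factor that it restrains, and DAF-15 is the Raptor subunit of TOR complex 1. They were named by their place in the pathway. As for every listed gene, these names rest on the study's list alone.

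The row listed as daf-2 went the other way. Whether this row is the insulin receptor gene was not checked, so its change is not read as that of the receptor. In C. elegans the row had a mean of 17270.8 normalised mRNA reads in diapause and 30840.5 in developing larvae. The log2 ratio of the row's deposited state means, developing over diapause, was 0.84 (C. elegans), 1.27 (C. briggsae), 1.18 (C. remanei) and 0.75 (C. brenneri) in mRNA, and 3.27, 2.83, 3.22 and 2.06 in RPF. Single libraries were recovered for this row in both assays in C. briggsae alone, where the mRNA change was 1.27 ± 0.19, the RPF change 2.83 ± 0.22 and the TE change 1.56 ± 0.27 (adjusted p = 0.0013). In the other 3 species its change was not tested.

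The kinase gene akt-1 fell in the 3 species where it is listed, with mRNA changes of -2.37 ± 0.13 (C. elegans), -2.92 ± 0.14 (C. briggsae) and -1.32 ± 0.15 (C. remanei), all of them called. Its RPF changed by -2.71 ± 0.11, -3.24 ± 0.15 and -1.91 ± 0.13, also called, and its TE was called in none of the 3 (adjusted p from 0.10 to 0.40, with 1 of 3, C. remanei, at an unadjusted limma p under 0.05). The daf-16 mRNA changed by -0.75 ± 0.11, -1.35 ± 0.21 and -0.97 ± 0.13 and its RPF by -1.12 ± 0.10, -2.07 ± 0.17 and -1.70 ± 0.12 in the same species, all called, with a TE call in C. remanei (-0.73 ± 0.17, adjusted p = 0.017). The smallest changes were those of daf-15, whose mRNA was called lower in C. elegans (-0.50 ± 0.15), C. briggsae (-0.62 ± 0.16) and C. brenneri (-0.33 ± 0.11) and not in C. remanei (-0.08 ± 0.12, adjusted p = 0.71, interval -0.35 to 0.20). Its mRNA libraries overlapped between states in C. elegans and C. remanei. In RPF daf-15 was called in C. elegans (-0.67 ± 0.11), C. briggsae (-0.83 ± 0.15) and C. brenneri (-0.53 ± 0.10) and not in C. remanei (-0.25 ± 0.12, adjusted p = 0.12, interval -0.51 to 0.0018).

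Among the curated genes, the nearest to each member was taken by Euclidean distance over the log2 changes of all tables that hold both genes. The nearest to unc-51 was atg-3, at a distance of 0.37 over 8 tables, and the reverse also held, with lite-1 (0.55 from unc-51 and 0.48 from atg-3) and T19F4.1 (0.85 and 0.68) following. The nearest to atg-18 was mfb-1, at 0.78 over 8 tables, followed by lgg-1 and akt-1, at 1.01 and 1.10 over 6 tables. The nearest to lgg-1 was akt-1, at 0.95 over 6 tables, followed by atg-18 and mfb-1. By this measure unc-51 and atg-3 were each the nearest to the other, and atg-18 and lgg-1 were each second nearest to the other. Genes of one table share its libraries, so the distances are a description.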

How the data were processed

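The authors mapped trimmed reads with Bowtie 0.12.7 to each species' genome and coding sequences and compared the states with DESeq, table by table. Each of the 8 deposited tables holds, per coding sequence, the signal of each state as a mean of normalised reads over its 3 libraries, a ratio of observed to fitted variance per state, and the authors' own fold changes and p-values. These are not reported, and their fold changes served only to find rows and to read the columns. The authors' signal is not given per library. Because each deposited mean is the sum of 3 whole read numbers, each times a constant of its library, the reads of single libraries were recovered by lattice reduction for 99.3% to 99.96% of values above 0 in the 16 columns, the lowest unsolved mean being 10021. All solved values were right in simulated tables. As a further check, the variance of the recovered normalised reads was divided by the deposited variance ratio, which gives back the fitted variance. The part expected from counting reads was taken off. The remainder lay within 2% of the fitted variance from a running median over the mean of both states. This held for 99.89% to 99.94% of rows tested. Libraries within a state carry no number and are lettered by their reads.

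The labels gave each sample's group, that is its species, its state and its assay, but not which of the mean columns, A or B, holds which state. Column A was read as diapause from the direction the study's text gives for the autophagy genes and nhr-49. After the values were seen, this was checked without the members. Recovered library totals followed the study's mapped reads per library more closely as read than swapped in 8 of 8 tables (in C. brenneri mRNA an SD of log2 ratios of 0.15 against 0.18), and 70 of 70 C. elegans genes that the study lists as characteristic of developing samples were higher in column B in both assays. The 3 libraries per group are biological replicates by the study's methods. Changes were tested with limma 3.58.1 (R 4.3.3, variance trend) on log2(normalised reads + 1), which understates changes of low values, and TE as the interaction of state and assay. P-values were adjusted over the whole table (Benjamini-Hochberg) and called under 0.1. The design had foreseen this test only if single libraries could be recovered. The tests were also tried on simulated reads in which few coding sequences changed, 100 at each size of change. In the data 7664 to 11292 were called per species in mRNA or RPF. The recovery in simulated reads is therefore not the sensitivity in these data. A log2 change of 1 in size was called for 33% to 49% of changed coding sequences in mRNA, depending on the species. The range was 28% to 38% in RPF and 44% to 56% in TE. A log2 change of 2 in size was called for 84% to 100%. A missing call is not read as no change. Alternatives were other scalings, a pseudocount of 10, voom weights, a mean of at least 10, omission of each library, a fold of 1.5, minima of none and 200 for well-expressed coding sequences, and a matching tolerance of 1e-04 in place of 1e-05. Rows of the other species were found by matching changes to the study's curated list. The named genes are the 4 members, daf-2, akt-1, daf-16 and daf-15 from the same list, and the 3 nearest listed genes. Members and lists were chosen with earlier results of these data known. Genome coordinates and sequences were not used here.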

Additional observations from a re-analysis of the deposited data

How the results depend on the processing

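All 15 mRNA and all 15 RPF calls held under other scalings, a pseudocount of 10 and, as alternatives chosen after seeing the data, voom weights and a minimum mean of 10. Leaving out each library in turn gave 15 RPF calls throughout, between 14 and 15 mRNA calls (C. remanei unc-51 was lost) and between 5 and 9 TE calls, against 8. TE calls numbered 9 with equal column sums and 11 with a minimum mean of 10. Over all coding sequences, equal column sums moved the lower TE calls from 1318 to 4640 in C. elegans, from 1169 to 530 in C. briggsae, from 1243 to 171 in C. remanei and from 147 to 2887 in C. brenneri, and the minimum mean moved them to 1477, 1444, 1704 and 219. Scaling to equal column sums ended the C. briggsae TE calls of unc-51, atg-18 and atg-3 and the C. remanei call of atg-18, and added 5 others. In C. briggsae and C. remanei, 2 coding sequences held 31.2% to 80.1% of the RPF column sums on which this scaling rests. No mRNA, RPF or TE change of a member turned its direction under any alternative run. With a fold of 1.5 in place of 2, 14 members in place of 8 passed in mRNA. The share of well-expressed coding sequences that fell 1.5-fold is not given here, so nothing is read from that count. Without the minimum for well-expressed coding sequences, the share at least 2-fold lower in mRNA was 14.9% in place of 6.39% in C. remanei and 6.62% in place of 4.32% in C. brenneri. Matching with the wider tolerance found the same number of rows, 15. From the deposited means alone, no paired analysis was possible because they carry no replicate number for the libraries within them. By the study's methods, the diapause and developing larvae of a replicate came from the same batch. Recovered library totals were compared with the study's mapped reads only to read the columns. Whether those totals could tie libraries to batches was not tested, so all tests left the pairing out. The TE tests also left out that the mRNA and RPF data came from common samples.

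Depth limited few members: the fewest reads of any member in a library were 74, for atg-3. Recovered libraries were unnumbered, the few coding sequences not solved, none with a mean under 10021 normalised reads, were left out of the fits, and the tables were normalised separately for each species and assay, so levels were compared between the states of a table only, and RPF to mRNA ratios were set against the median of their own species and state.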
